A study of Homo sapiens with 4 samples.

Results

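Of 3965 p63 peaks on chromosomes 1 to 22 and X in immunoprecipitate (IP) replicate 1, 270 (6.81%, 95% Wilson interval 6.07 to 7.64%) had their summit within 2000 bp of an end of a protein-coding gene. Both the start and the 3′ end of a gene span in RefSeq (GRCh38.p14) counted, on either side, and the values of the peaks played no role in choosing them. The other peaks fell deep inside genes (1480 peaks), between genes within 100 kb (981 peaks) or farther from any gene (1234 peaks). The 270 peaks touched 309 of 19974 protein-coding genes (1.55%) at 325 gene ends. The cells were HSC-5, a long-established line from a human squamous carcinoma of the skin, fixed with 1% formaldehyde for 12 min. Chromatin was precipitated with an anti-p63 antibody in 2 IPs, and 2 input libraries were made. There was no treatment, no altered genotype and no comparison condition, so the questions addressed are where p63 bound and how strongly. A peak list measures no expression, so the identity of the cells was not checked by marker levels.

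p63, a DNA-binding regulator related to p53, keeps the basal layer of stratified epithelia, such as epidermis, in a proliferative state. It binds a palindromic DNA element shared with p53, often in enhancers far from genes, and also at promoters. The promoter just before a gene start recruits RNA polymerase, whereas the 3′ end is where transcripts are cleaved and terminated.

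Sequence could be read at 40 of the 270 peaks, those overlapping a RefSeq promoter window of 300 bases (250 before and 50 after an annotated start). The windows were searched for the 20-base p53 family response element, without spacer and with the C and G of both cores in place, allowing 3 mismatches at other positions; it reads the same on both strands. The 5 stretches shown here were chosen because they carried this element under peaks with many tags; each is read 5′ to 3′ on the gene's strand, with the element in capitals.
TRIM32: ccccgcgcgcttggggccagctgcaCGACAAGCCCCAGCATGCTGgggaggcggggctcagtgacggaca
MDM2: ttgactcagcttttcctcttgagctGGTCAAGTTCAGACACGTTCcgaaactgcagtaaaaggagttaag
RNASE7: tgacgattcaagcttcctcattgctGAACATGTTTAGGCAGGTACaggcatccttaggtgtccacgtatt
LOC124901228: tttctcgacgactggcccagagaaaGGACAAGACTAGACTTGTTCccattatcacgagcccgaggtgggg
SRA1: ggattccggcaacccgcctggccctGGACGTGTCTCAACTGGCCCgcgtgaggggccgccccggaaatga
These sequences are from RefSeq, GRCh38.p14, and their positions are as follows. The TRIM32 stretch lies at chr9:116687202-116687271 on the plus strand, before the gene start. The MDM2 stretch lies at chr12:68808898-68808967 on the plus strand, before an annotated internal start 845 bp inside the gene. The RNASE7 stretch lies at chr14:21042161-21042230 on the plus strand, before the gene start. The LOC124901228 stretch lies at chr6:63573688-63573757 on the minus strand, before the start of that gene and beside LGSN. The SRA1 stretch lies at chr5:140557485-140557554 on the minus strand, before an annotated internal start 620 bp inside the gene. The element had 1 mismatch at LOC124901228, 2 at MDM2 and RNASE7, and 3 at TRIM32 and SRA1. Its centre was 6 bp from the summit at SRA1, 12 bp at LOC124901228, 14 bp at TRIM32, 20 bp at MDM2 and 24 bp at RNASE7. A match is a description of the letters, not evidence of a contact by p63.

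The element was present at 13 of the 40 peaks (32.5%, Wilson interval 20.1 to 48.0%), against 253 of all 22140 promoter windows (1.14%). Under the 12 peaks that overlapped a promoter window without lying at a gene end, 3 windows held it (25%, interval 8.89 to 53.2%), so the 2 intervals overlapped. The element lay inside the peak at 11 of the 13 and within 50 bp of the summit at 10, with a median distance of 24 bp (range 6 to 364 bp). Besides the 5 genes above, it was found at HSPA4L, PANK1, DCP1B, NDUFAF8, MR1, RPS27L, CFAP77 and LOC124904962; HSPA4L, DCP1B, NDUFAF8 and MR1 are named only because they held it. At RPS27L and CFAP77 it lay outside the peak, 290 and 364 bp from the summit. Peaks with the element had 11 to 68 tags (median 19) and the remaining 27 had 8 to 33 tags (median 10). It occurred at 8 of 16 peaks with 15 or more tags (50.0%) and at 5 of 24 with fewer (20.8%, intervals 28.0 to 72.0% and 9.24 to 40.5%, which overlap).

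**Figure D1:**
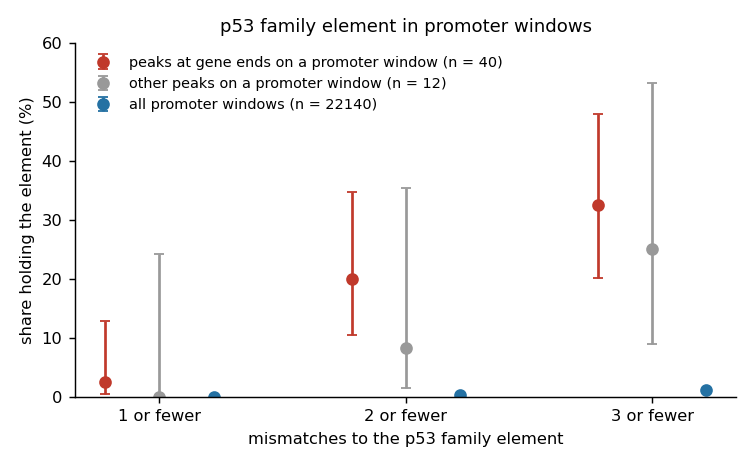
Share of promoter windows or peaks on them (vertical axis, percent) that held a p53 family element with at most 1, 2 or 3 mismatches (horizontal axis), with 95% Wilson intervals. At 3 mismatches, the 40 peaks at gene ends stood at 32.5% and all 22140 windows at 1.14%, and the 12 other peaks had an interval that overlapped that of the 40.

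Shorter promoter motifs were counted in the 47 windows under the 40 peaks, on both strands. The AP-1 motif (TGANTCA) was in 12.8% of them (interval 5.98 to 25.2%) and in 6.16% of all windows. The GC box (GGGCGG), a binding motif of SP factors, was in 70.2% (56.0 to 81.3%) and in 56.3% of all. The TATA box (TATAAA) was in 4.26% and 9.47%, and the E-box (CACGTG) in 6.38% and 8.34%. None of these motifs contains another, and overlaps between matches were not counted. For the AP-1 motif, the GC box, the TATA box and the E-box alike, the share over all windows lay inside the interval of the 47. Base composition was close to that of all windows, with a median G+C content of 63.3% against 62.3%.

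Tags are the reads kept in a peak by the authors' peak caller, and the fold is that caller's ratio of IP over local control. The library of replicate 1 had 12687447 tags kept after duplicate removal (42.7% removed) and the smallest peak held 8 tags, so most peaks rest on few reads; intervals on tags are exact Poisson intervals at 95% and cover counting error only. The 270 peaks had a median of 10 tags (quartiles 9 and 15), as did the other 3695, and median widths of 248 and 245 bp. At the lowest count of 8 tags stood 58 of the 270 (21.5%), and 14 had 30 or more (5.19%, Wilson interval 3.11 to 8.51%, against 10.4% of the others). By class, that share was 3.24% deep inside genes, 4.99% between genes and 23.3% in the distal class.

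The median fold at gene ends was 15.57 (95% interval of the median 14.66 to 16.38, range 3.78 to 70.36), and that of the other peaks was 13.17 (12.98 to 13.53). A fold of 20 or more was reached by 69 of the 270 (25.6%, interval 20.7 to 31.1%), against 522 of the other peaks (14.1%, 13 to 15.3%) and 14.9% of all peaks. By class, the share was 18.2% deep inside genes (16.4 to 20.3%), 20.4% between genes (18.0 to 23%, which overlaps that at gene ends) and 4.21% in the distal class. The median fold was 14.52 deep inside genes (14.12 to 14.83) and 14.66 between genes (14.08 to 15.01), both with intervals that overlap that at gene ends, and 11.35 in the distal class (11 to 11.67). Peaks of 1 library share that library and are not replicates, so these differences were not tested; widths moved with them, since 97 of the other peaks were 1 kb or wider (2.63%), against 1 of the 270. With peaks under 1 kb alone, the medians were 15.57 and 13.5, so that order was as with the wide peaks included.

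**Figure D2:**
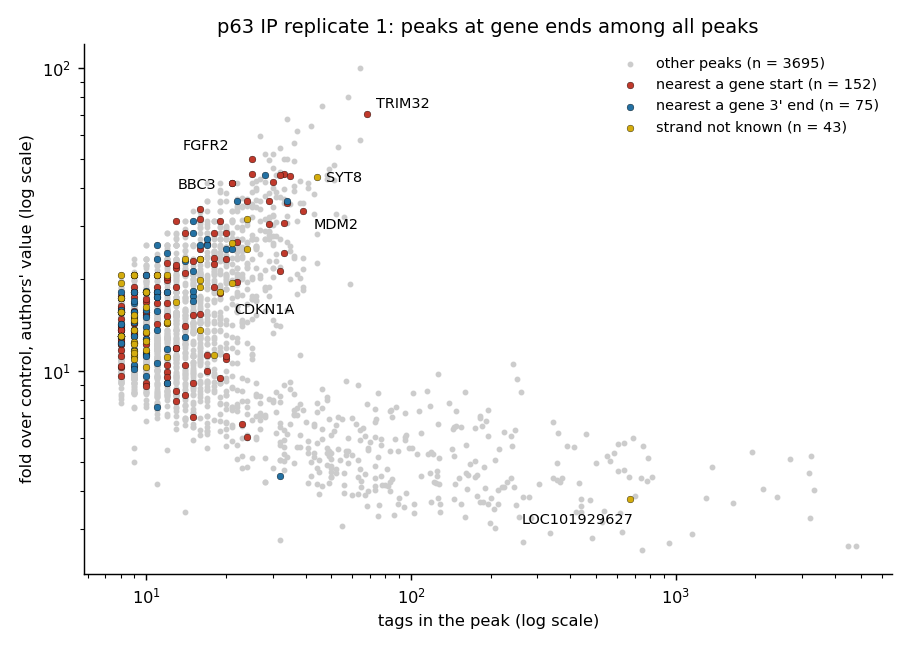
Each point is a peak of p63 IP replicate 1, with its tags (horizontal axis, log scale) against the authors' fold over control (vertical axis, log scale). The 270 peaks at gene ends are coloured by the kind of nearest end; TRIM32 has the highest fold among them, and the arm of wide peaks with many tags and low fold holds LOC101929627.

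The share of peaks found at gene ends was greater in each higher class of fold. It was 2.75% of the 728 peaks with a fold under 10 and 6.07% of the 1663 from 10 to under 15. It was 8.14% of the 983 from 15 to under 20 and 10.0% of the 440 from 20 to under 30. Among the 151 peaks of 30 or more, 25 were at gene ends (16.6%, Wilson interval 11.5 to 23.3%), and this interval did not meet those of the 3 classes under 20. With the distal class left out, the shares were 8.62, 8.33, 10.7, 11 and 18.0% in the same order, so the low values at the bottom came with distal peaks. The highest class then stood at 25 of 139 (interval 12.5 to 25.2%), which overlapped all but the class from 10 to under 15.

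**Figure D3:**
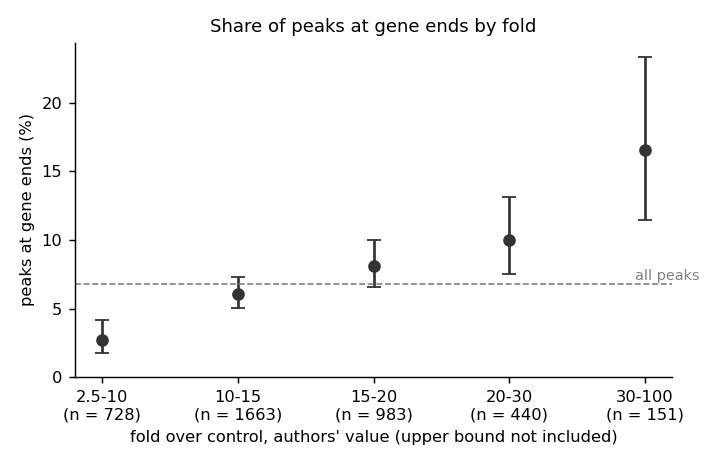
Percent of peaks at a gene end (vertical axis) in 5 classes of the authors' fold (horizontal axis), with 95% Wilson intervals; the dashed line is the 6.81% of all peaks. The points run from 2.75% in the lowest class, which holds many distal peaks, to 16.6% in the highest.

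TRIM32, an E3 ubiquitin ligase gene, had both the highest fold and the most tags of the peaks at gene ends under 1 kb wide. Its peak (chr9:116686798-116687383) held 68 tags (interval 52.8 to 86.2) at a fold of 70.36. Its summit was 55 bp before the gene start and 14 bp from the centre of the element printed above, just outside it. The next such peak, at SYT8, had 44 tags. The interval of SYT8 (32.0 to 59.1) and that of MDM2 (27.7 to 53.3) overlapped that of TRIM32, so this order is not resolved at this depth.

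FGFR2, a fibroblast growth factor receptor of epithelia, had 25 tags (16.2 to 36.9) at a fold of 49.92, 1194 bp inside the gene from its start. AXL, another receptor tyrosine kinase gene, had 21 tags (13 to 32.1) at a fold of 41.52, 516 bp before the start. The peak shared by NEK8, a kinase gene, and TRAF4, an adaptor of receptor signalling, had 28 tags (18.6 to 40.5) at a fold of 44.12. It lay at the 3′ end of NEK8, 270 bp before the end coordinate. The tag intervals of these 3 peaks overlapped, so their order is not resolved at this depth.

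DHRS3, encoding a retinal reductase, had 33 tags at a fold of 44.55, 257 bp before its start, and DHRS2, a relative in the same dehydrogenase family, had 30 tags at a fold of 41.9, 1888 bp inside the gene. RNASE7, encoding an antimicrobial ribonuclease of skin, had 35 tags at a fold of 44.05, 190 bp before its start, with another p63 summit 1.923 kb away. SYT8, a synaptotagmin gene, had 44 tags (32.0 to 59.1) at a fold of 43.56, 982 bp outside the gene, whose strand was not in the tables used. Further down by fold, but among the 10 with most tags, UGT1A6, a glucuronosyltransferase gene, had 32 tags at a fold of 21.39, in a peak of 666 bp. ARPC2, encoding a subunit of the actin-nucleating Arp2/3 complex, had 33 tags at a fold of 24.51, 1941 bp inside the gene.

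CEBPA and REV3L had the same fold, 36.33. At CEBPA, a transcription factor gene of epidermal differentiation, 22 tags (13.8 to 33.3) lay 1256 bp beyond the 3′ end. At REV3L, which encodes the catalytic subunit of a translesion polymerase, 24 tags (15.4 to 35.7) lay 438 bp before the start. CEBPA was the single gene with a peak at an end among 33 epithelial transcription factor genes listed (3.03%, beside 1.55% of all protein-coding genes). The 15 peaks with the highest folds were completed by the gene pairs at CDC42SE1, MBD6, TYSND1 and WBP2, described with the pairs, and by BBC3, described with the p53 targets.

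**Figure D4:**
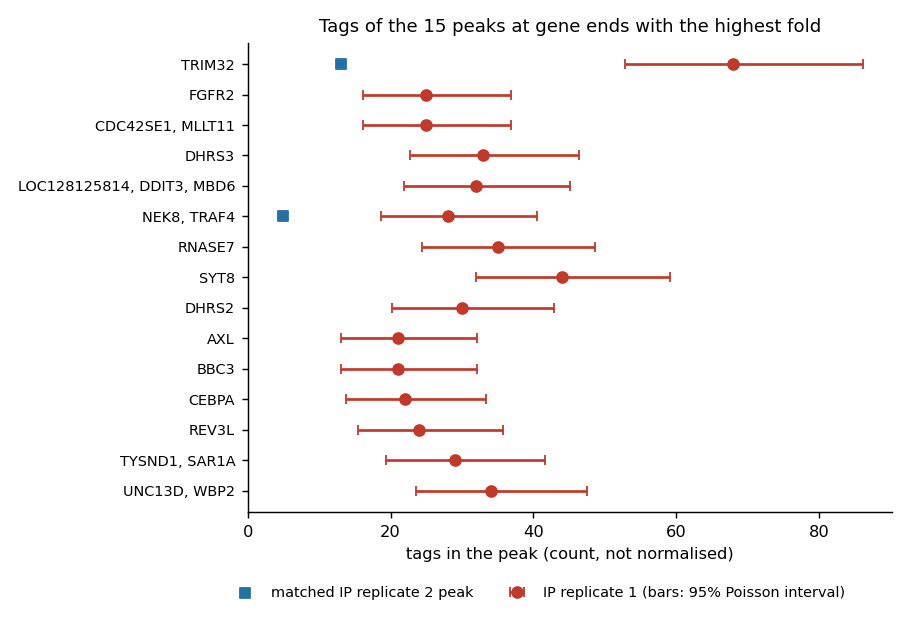
Tags (horizontal axis, counts not normalised for depth) of the 15 peaks at gene ends with the highest fold, from top to bottom in order of fold, with 95% exact Poisson intervals for IP replicate 1 and the tags of the matched peak in the shallower IP replicate 2 where there was one. TRIM32 has the most tags, 68, with an interval that overlaps that of SYT8, and 2 of the 15, TRIM32 and NEK8 with TRAF4, have a matched peak.

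Genes known as p53 targets were the gene group with the greatest share at gene ends among the 17 lists examined: 7 of 33 had a peak at an end (21.2%), beside 1.55% of all protein-coding genes. The list was chosen with results of these data known, and the share was not tested. MDM2, encoding the ubiquitin ligase that degrades p53, had 39 tags (27.7 to 53.3) at a fold of 33.63 (chr12:68808815-68809174), with its summit 741 bp inside the gene. BBC3, encoding the pro-apoptotic protein PUMA, had 21 tags (13 to 32.1) at a fold of 41.52, 1502 bp inside the gene. GADD45A, a growth arrest gene, had 24 tags (15.4 to 35.7) at a fold of 25.13, inside this short gene and 1554 bp from the nearer end.

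CDKN1A, encoding the cyclin-dependent kinase inhibitor p21, had the summit closest to any gene end, 19 bp inside the start coordinate. Its peak (chr6:36676230-36676561) held 19 tags (11.4 to 29.7) at a fold of 18.08. A gene span runs to its outermost annotated transcript, so this coordinate need not be the start that cells use most. RPS27L, a ribosomal protein paralog, also had 19 tags, at a fold of 31.14 and 230 bp inside the gene. PHLDA3, an inhibitor of AKT signalling, and BTG2, an antiproliferative gene, each had 9 tags (4.12 to 17.1), at folds of 20.76 and 18.17. Thus 5 of the 7 peaks held 19 tags or more, while 2 were near the lowest count.

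Basal keratinocyte adhesion and keratin genes had peaks at 4 of 33 (12.1%, beside 1.55% of all protein-coding genes), all with few tags. KRT17, a basal and stress keratin, had 8 tags at a fold of 20.76, FERMT1, an integrin activator, had 9 at 20.76, and PKP3, a desmosomal plakophilin, had 11 at 20.76. ITGB4, the hemidesmosomal integrin, had 10 tags at a fold of 11.67 and lay 1963 bp from the gene end, close to the limit of the window. The strand of these 4 genes was not in the tables used, so start and 3′ end were not told apart. In a list of 33 genes that earlier studies report as p63-bound, 4 had such a peak (12.1%, beside the same background): CDKN1A, FGFR2, ITGB4 and ADA. ADA, encoding adenosine deaminase, had 8 tags at a fold of 11.16, 523 bp inside the gene.

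Other lists had at most 1 gene with a peak at an end, apart from those defined by a symbol pattern. Among 33 epidermal differentiation genes, ABCA12, a lipid transporter of the skin barrier, had 15 tags at a fold of 15.25. Of 29 Notch pathway genes, DTX4 had 13 tags at 11.84, and of 24 AP-1 and immediate early genes, KLF6 had 11 tags at 7.56, inside its 3′ end. No gene was counted among 30 cell cycle genes, 33 DNA repair genes or 76 cytosolic ribosomal protein genes picked by a symbol pattern. None was counted either in the lists of other cell types, 18 melanocyte, 24 fibroblast and 28 blood cell genes. The lists are not complete, and REV3L and MUS81, which had a peak at an end, are not in that of DNA repair. FAU, a cytosolic ribosomal protein gene whose symbol does not match the pattern, also had a peak at an end. With 1.55% of all genes as background, lists of this size hold about 1 gene or none at that rate, and a count of 0 does not set them apart.

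Where the strand was known, 152 peaks were nearest a gene start and 75 a 3′ end (67.0% starts, Wilson interval 60.6 to 72.8%); for 43 the strand was not known. Counted per gene, 176 of 15813 starts had a peak (1.11%) and 92 of the same 15813 genes had one at the 3′ end (0.582%). Tags and folds of both kinds were close. The median was 10 tags for each, and the median fold was 15.465 at starts and 15.57 at 3′ ends. Peaks of 30 tags or more were 10 of 152 at starts and 2 of 75 at 3′ ends. Of the 25 peaks with a fold over 30, 19 were nearest a start, 4 a 3′ end, and 2 an end of unknown kind.

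Summits occurred in every 500 bp bin of the window, with the highest bin just before the end for both starts and 3′ ends. Among 181 pairs of a summit and a gene start, 83 summits were before the start and 98 after it. Bins of 500 bp held 15 to 31 pairs, with the 31 in the bin just before the start and 18 in the bin just after it, and 32 summits were within 250 bp of a start. Of 92 pairs of a summit and a 3′ end, 50 lay before the end and 42 beyond it, at 5 to 18 per bin, and 15 were within 250 bp. By distance to the nearest end, 81 of the 270 peaks were within 500 bp (30.0%), 71 from there to 1000 bp, 56 to 1500 bp and 62 in the outermost 500 bp. The median fold of the innermost and outermost groups was 15.57 and 16.76, so the fold was not lower toward the edge of the window.

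**Figure D5:**
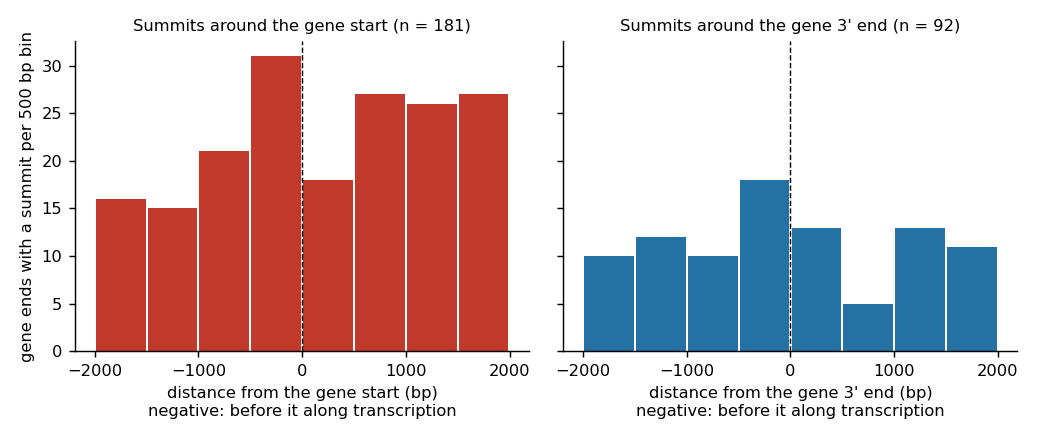
Number of gene ends with a p63 summit per 500 bp bin (vertical axis) by distance from the gene start (left) or the 3′ end (right) along the direction of transcription (horizontal axis, bp; negative values lie before the end). The highest bin is the 500 bp just before the start, with 31 of 181, and the lowest bin around 3′ ends holds 5 of 92.

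The 10 summits closest to an end lay within 55 bp of it. After CDKN1A came EIF4B, a translation initiation factor gene (22 bp, at its 3′ end), RIMKLA (30 bp, at its 3′ end), PHLDA3 (30 bp) and LOC105378947 (42 bp, at its 3′ end). They were followed by ARL14EP (44 bp), ADAD2 (51 bp, at its 3′ end), CEP120, a centriole protein gene (51 bp), PANK1, a pantothenate kinase gene of coenzyme A synthesis (54 bp), and TRIM32 (55 bp). Apart from TRIM32 and CDKN1A, these peaks held 9 to 15 tags, so most of the closest summits rested on few tags.

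At the edge of the window, the summit farthest in was at CTPS2, 1993 bp from the gene end with 11 tags at a fold of 17.49. The nearest summit left out was at C10orf90, 2004 bp away with 10 tags at a fold of 15.57. RRM2B, a p53 target in the list above, had a peak of 19 tags at a fold of 11.35 that lay 2065 bp from its end and so was not counted.

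Of the 270 peaks, 42 lay within reach of ends of more than 1 gene: 39 of 2 genes and 3 of 3 genes. They formed 48 gene pairs, of which 21 were divergent, 5 convergent and 13 tandem, with 9 of unknown arrangement. The spans of 17 pairs overlapped, and 31 pairs were apart. Some overlapping pairs were entries that share an end coordinate: NME1 with NME1-NME2, ZFTRAF1 with TMEM276-ZFTRAF1, and PTP4A1 with LOC128125822, named only for this. The starts of DDIT3 and LOC128125814 were 37 bp apart on the same strand, and those of LGSN and LOC124901228 39 bp. Such pairs need not be separate neighbouring genes. These 42 peaks had a median of 11 tags and a fold of 14.14, beside 10 tags and 15.57 at the 228 peaks of a single gene.

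Each of the peaks with ends of 3 genes sat at closely packed gene entries. The peak of LGSN, LOC124901228 and LOC128125822 (chr6:63573601-63573929) had 34 tags (23.5 to 47.5) at a fold of 35.83. It held the element with 1 mismatch, found in 7 of the 22140 windows. The peak of MBD6, DDIT3 and LOC128125814 (chr12:57522112-57522428) had 32 tags (21.9 to 45.2) at a fold of 44.27. DDIT3 encodes the endoplasmic reticulum stress factor CHOP, and the starts of MBD6 and DDIT3 were 198 bp apart. The peak of INKA1, CDHR4 and UBA7 had 14 tags (7.65 to 23.5) at a fold of 28.55. UBA7 encodes the activating enzyme of the ubiquitin-like protein ISG15.

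Bidirectional promoters, where the starts of divergent genes lie within 1 kb, were present in 18 pairs at 17 peaks, out of 1097 such pairs in the genome (1.64%). Of single starts with known strand, 1.11% had a peak. MBD6 entered with both DDIT3 and LOC128125814, at the same peak. The gap between the starts was 45 to 912 bp, with a median of 245.5 bp. The peaks had 8 to 32 tags (median 12) and a median fold of 13.34. A fold of 20 or more was reached by 4 of 17, beside 69 of all 270 at gene ends (25.6%) and 14.9% of all peaks. The summit lay between the starts in 1 of the 18 pairs, NAIF1 and SLC25A25, whose starts were 912 bp apart, the widest gap. In 16 of the 17 peaks the summit was inside a coding gene, beside 175 of all 270 at gene ends (64.8%). The gaps between starts are narrow beside the window searched around each start, so most places for a summit lie inside a gene of the pair. These counts thus follow largely from the layout of such pairs, and whether p63 bound less often between starts was not tested. CDC42SE1 and MLLT11 had 25 tags (16.2 to 36.9) at a fold of 44.6, with the summit 762 bp inside CDC42SE1 and starts 775 bp apart. The peaks at TMEM87A and GANC (19 tags), NAIF1 and SLC25A25 (14 tags), and SLC35A5 and ATG3 (13 tags) had lower folds of 9.47, 8.29 and 8.6. At POLR2L and TSPAN4 there were 13 tags, at LMBRD2 and SKP2 12 tags, and at SUFU and ACTR1A 12 tags, with folds of 18.85, 10.43 and 9.9.

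Tandem genes and pairs of unknown arrangement included some of the largest tag counts. WBP2 and UNC13D had 34 tags at a fold of 36.3, between the genes and 408 bp beyond the 3′ end of WBP2. SRA1 and APBB3 had 33 tags at 30.63, 567 bp inside SRA1 and on the element printed above. TYSND1, a peroxisomal protease gene, and SAR1A, a GTPase gene of vesicle budding, had 29 tags at 36.3. FLOT2, a lipid raft protein gene, and DHRS13 had 29 tags at 30.43.

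The median distance to the nearest other p63 summit was 139930 bp at gene ends and 139581 bp for the other peaks. Within that, 9 of 270 had another summit within 1 kb (3.33%, against 1.89%), and 21 within 10 kb (7.78%, interval 5.14 to 11.6%, against 13%). The 13% combined 5.20% deep inside genes and 5.61% between genes with 28.2% in the distal class. Peaks deep inside genes had a median spacing of 175508 bp and distal peaks 65062 bp. Only 5 genes had more than 1 peak at their ends. LOC124904962 had 3 before its start, with 22, 10 and 17 tags, and the summits were 487 and 483 bp apart. CDC42, a small GTPase gene, had 2 of 9 and 8 tags, 310 bp apart. MUS81, an endonuclease gene, had 2 of 9 and 8 tags, 313 bp apart, and THAP7 had 2 of 15 and 13 tags, 445 bp apart. The peaks at CDC42 and MUS81 were thus at or near the lowest count of 8 tags. LOC128125822 had 1 peak at each end, with 34 and 9 tags.

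The widest and most tag-rich peak of the 270 differed from the rest. It lay 1196 bp from an end of LOC101929627, was 5059 bp wide and held 673 tags at a fold of 3.78, the lowest of all 270. No other peak at a gene end was 1 kb wide; the next was 666 bp, at UGT1A6.

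Replicate 2 was shallow, with 868393 tags kept (78.8% removed as duplicates), 6.84% of replicate 1, and its list follows another coordinate numbering. Peaks under 1 kb were therefore matched by the spacing of their summits. A match was found for 16 of 269 peaks at gene ends (5.95%, Wilson interval 3.69 to 9.44%), 194 of 3598 others (5.39%, 4.70 to 6.18%) and 5.43% of all, and these 2 intervals overlapped. None of the 58 peaks at gene ends with 8 tags was matched, and 6 of 141 with 9 to 14 tags were (4.26%). Matches were found for 9 of 57 with 15 to 29 tags (15.8%) and 1 of 13 with 30 or more (7.69%). In the same classes, 6 of 973 (0.617%), 49 of 1700 (2.88%), 91 of 638 (14.3%) and 48 of 287 (16.7%) of the other peaks were matched. Matched peaks at gene ends had a median of 15.5 tags and a fold of 21.315, and unmatched ones 10 tags and 15.56.

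TRIM32 had 68 tags in replicate 1 and 13 in replicate 2, the most of any match. OTUB1, a deubiquitinase gene, had 16 and 8. Both PHLDA3 and EPS8, an actin regulator gene, had 9 and 6, and NAB2, whose 3′ end overlaps that of STAT6, had 15 and 6. PANK1 had 13 and 6. FLOT2 (29), NEK8 (28), SLC25A45 (22), CMBL (19), POMGNT1 (12) and CLN3 (12) each had 5 tags in replicate 2. MTA2 (20), RPS27L (19), KCTD11 (15) and CFAP77 (14) each had 4, the lowest count in that list. Of the p53 targets, PHLDA3 and RPS27L were thus matched, while MDM2, BBC3, GADD45A, CDKN1A and BTG2 were not; at this depth an unmatched peak does not show that binding was absent.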

How the data were processed

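p63 ChIP-seq was made from HSC-5 cells in 2 IPs with 2 inputs, and peaks were called per IP with MACS 1.4.2, per the file headers. Upstream, FastQC, Trimmomatic, Bowtie and hg19 are named per the submitters' processing notes. The header does not say which input was the control (28327222 tags kept for replicate 1, 13175270 for replicate 2), and the inputs' own files were not used. Whether the replicates were separate cultures is not stated in the labels. Each deposited tag count is a whole number of tags in the peak, not normalised, with 1 control per list. Scores were deposited as the log10 p-value multiplied by -10. The deposited ratio is fold over local control, and false discovery rates were deposited in percent, per the file headers. Widths and summits are in bp, per the file headers. Replicate 1 (4077 peaks, 112 on other contigs or chromosomes left out) was read as GRCh38, although the notes name hg19, because its contig names are those of GRCh38; every position given rests on that reading. Replicate 2 (2934 peaks) was not placed on genes, and no coordinate was converted.

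Summits were compared with RefSeq spans of protein-coding genes (GRCh38.p14). Strand came from the promoter table for 15813 of 19974 genes (79.2%), with none on chromosome 8. Matching by spacing required 2 or more further pairs with the same summit offset to within 100 bp, lying 2 kb to 10 Mb away, with offsets up to 5 Mb; an earlier analysis devised it on these lists. The peaks, gene lists and tests were chosen with earlier results of these data known. Genes named are those at the 15 highest folds, the 10 largest tag counts and the 10 summits closest to an end (peaks under 1 kb), at peaks of 1 kb or wider, matched peaks, peaks with ends of 3 genes, the 10 bidirectional pairs with most tags, listed genes and annotated peaks; others are marked. No test was run, because there is 1 placed library. Wilson and exact Poisson intervals (95%) cover counting error only, since they rest on counts of 1 library. The reads had no molecular identifiers. Counting steps were tested on simulated data. Python 3.11.15, pandas 2.3.3, numpy 2.4.6 and scipy 1.17.1 were used. Alternatives were other windows, peak midpoints, thresholds on score, fold and width, gene-free spans, matching settings and mismatches.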

Additional observations from a re-analysis of the deposited data

How the results depend on the processing

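The count of peaks at gene ends scaled with the window. At 1000 bp there were 152 peaks, 168 genes and 18 peaks with ends of several genes, and at 5 kb there were 514, 647 and 127. With a score of 100 or more, 56 peaks at 72 genes remained, 13 of them at several genes. Their medians were 20.5 tags, 315 bp wide, a fold of 28.55 and 919702 bp to the nearest such summit, and 75% were nearest a start. With 1 supporting pair, 18.2% of peaks at gene ends were matched in replicate 2 and 13.6% of the others. With 2 mismatches or fewer, an alternative chosen after seeing the data, 20.0% of the 40 peaks on promoter windows held the element. The other 46 values stayed close to the reported ones, inside their intervals or, for counts, without a large change. The median fold was above that of all other peaks pooled, distal ones included, in each setting run: 15.26 and 13.28 at 1000 bp, 15.56 and 12.98 at 5 kb, 28.55 and 23.36 with a score of 100 or more, 15.77 and 14.72 with a fold of 10 or more, and 15.57 and 14.33 without the widest gene-free spans. Tag counts of 8 to 15 limit most statements on single genes. No replicate could be left out, since 1 library was placed on genes. No paired analysis was possible because no test between groups was run and input files were not used.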

Other observations

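The authors wrote notes by hand beside 22 peaks of replicate 1, and 6 of these were at gene ends. The noted peaks had folds of 20.76 to 99.67. Gene ends held 6.81% of all peaks and 16.6% of those with a fold of 30 or more, and the count of notes was not tested. The notes at TRIM32 and FGFR2 name their promoters, and that at CDC42SE1 names this gene and MLLT11. The peak noted as the ELK3 promoter, a gene of an ETS factor, had 10 tags at a fold of 20.76 and lay 496 bp before the start. A peak noted as the EHD2 promoter, with 32 tags at a fold of 54.5, lay 12.742 kb from the nearest end of the EHD2 span and was not counted. DHRS3 and MBD6 carried a mark without a gene name.

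Of 510 zinc finger genes with a ZNF symbol, 7 had one (1.37%), of which ZNF658 had the most tags, 20 at a fold of 11.14. Of 390 olfactory receptor genes, 3 had one (0.769%), with 8 to 12 tags. Among 76 histone genes, H4C3 had 8 tags at a fold of 17.33 (1.32%). Among 77 mitochondrial ribosomal protein genes (2.60%), MRPL27 and MRPL49 had 8 and 9 tags, both at bidirectional promoters, with EME1 and with FAU. These shares stand beside 1.55% of all genes and were not tested.

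By chromosome, the share of peaks at gene ends was 14% on chromosome 11 (25 of 179, Wilson interval 9.64 to 19.8%), 3.42% on chromosome 5 (15 of 438) and 3.31% on chromosome 2 (9 of 272), beside 6.81% of all peaks. Counted per coding gene, 28 of 1301 had a peak at an end on chromosome 11 (2.15%) and 18 of 904 on chromosome 5 (1.99%). On chromosome 2 it was 9 of 1254 (0.718%), beside 1.55% of all protein-coding genes. Chromosomes 11 and 5 were thus close by genes, though not by peaks. Chromosomes 18 and 21 had none, of 16 and 64 peaks. An end of a long noncoding RNA gene lay within 2 kb of 35 of the 270 summits (13%, 9.47 to 17.5%) and of 196 of the 3695 others (5.30%, 4.63 to 6.07%). A miRNA gene end lay within that distance of 3 (1.11%) and of 15 others (0.406%). The others lie farther from coding genes by construction, and these differences were not tested.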
